A study of Arabidopsis thaliana with 6 samples.

Results

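Chlorophyll is built by a branched tetrapyrrole pathway in the chloroplast, and 10 genes of its course were followed at the transcript level in leaves of the *feronia* mutant (*fer*) and of the wild type (WT). The genes were taken by their identifiers: HEMA1 (AT1G58290), CHLD (AT1G08520), CHLH (AT5G13630), CHLI1 (AT4G18480), GUN4 (AT3G59400), CHLM (AT4G25080), CRD1 (AT3G56940), PORB (AT4G27440), PORC (AT1G03630) and CAO (AT1G44446). All 10 were found among the 20754 genes of the table, and none was removed by a filter. Transcript levels of 5 of them were lower in *fer* than in WT, those of HEMA1, of the Mg-chelatase subunits CHLD, CHLH and CHLI1, and of PORC, by 15.7% to 25.9% of the WT mean. The other 5, GUN4, CHLM, CRD1, PORB and CAO, did not pass the test, and none of the 10 increased. Decreases were called for 4.52% of all genes and for 17.6% of genes at least as abundant as GUN4, the least abundant of the 10. The call of CHLI1 lay close to the threshold. In a fit that gave rare and abundant genes the same prior variance, none of the 10 passed.

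In plants the pathway starts from glutamate bound to its transfer RNA, which is turned into 5-aminolevulinic acid (ALA) and, through a chain of shared intermediates, into protoporphyrin. There the road divides. Insertion of magnesium by Mg-chelatase leads to chlorophyll, and insertion of iron by ferrochelatase leads to heme and on to the bilin pigments of phytochrome. Flow into ALA and the magnesium step are the control points best known in leaves, because free intermediates of the chlorophyll branch are photosensitizers that produce singlet oxygen in the light. FERONIA (FER, AT3G51550) is a membrane-spanning receptor kinase with roles in growth, reproduction and stress responses.

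The *fer* libraries came from *fer-4*, a T-DNA insertion line, and the WT libraries from the accession Columbia-0, with 3 libraries of rosette leaves each and the insertion line as the only *fer* allele. Per the labels, seeds of both genotypes stood on MS plates for 10 days in constant light, and the plants then grew for 3 weeks in soil at 22 °C with 8 h of light and 16 h of darkness, with collection at an age of 4 weeks. The text of the study instead describes long days and slightly older plants, points that bear on light-regulated and senescence genes and that the files do not settle. Libraries were made by QuantSeq, which primes at the poly(A) tail and counts reads near the 3′ end, so that gene length does not enter a level. The replicates are called biological, but the labels do not say whether each was a separate plant or a pool. For its protein samples the study describes pools of rosettes, with more rosettes in a *fer* pool than in a WT pool. It does not state this for the RNA.

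Levels are given in normalized reads, the unit of the deposited values after scaling by the authors to a common library size. The 6 libraries sum to between 4523902 and 4526129 normalized reads, a total set by the scaling, so the sequenced depth of each library is unknown. Values within a genotype stand in the order of the deposited columns, which carry no replicate numbers. FER itself was at 5.95, 6.63 and 10.3 normalized reads in *fer* and at 264.6, 265.5 and 286.4 normalized reads in WT, or 2.80% of the WT mean, a log2 fold change of -5.02 ± 0.22 (SE, limma adjusted p = 7.2e-12). Over all genes, limma called 2083 increased (10.0% of 20754) and 938 decreased (4.52%) in *fer* at an adjusted p under 0.05. The median log2 fold change over all genes was 0.10, but it was 0.012 over the 2918 genes at least as abundant as GUN4, the least abundant of the 10. Single genes are best read beside the median of genes of a like level.

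The plot of the 10 genes by library shows each value. Levels cover a wide range, with 8 of the 10 among the 1000 most abundant genes of the leaf. CRD1 and CHLH were the most abundant, with ranks of 97 and 147 by mean level, and GUN4 was the least abundant, at rank 2918.

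**Figure D1:**
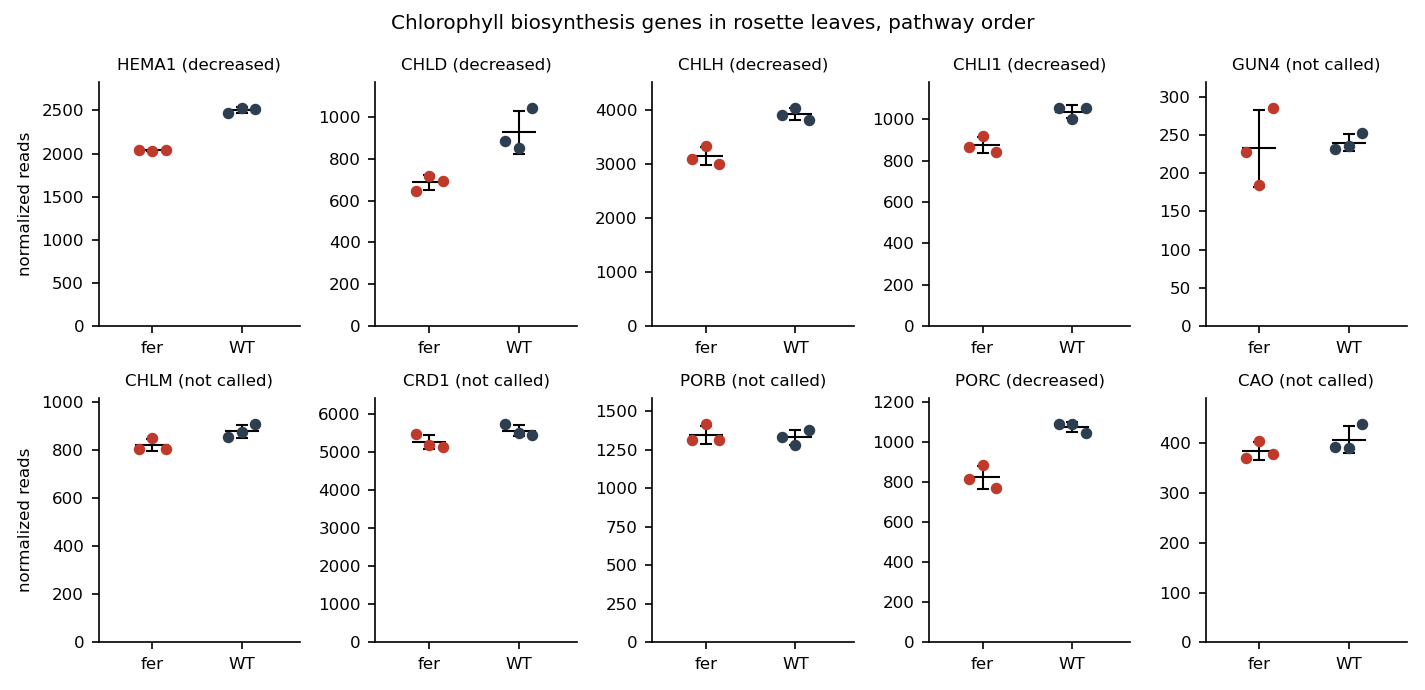
Normalized reads of the 10 chlorophyll biosynthesis genes in each library, 3 *fer* libraries to the left of 3 WT libraries in every panel, with the group mean as a horizontal line and the SD as error bars. The *fer* points lie below all WT points for HEMA1, CHLD, CHLH, CHLI1, CHLM and PORC, whereas those of GUN4, CRD1, PORB and CAO mix with WT.

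HEMA1 encodes glutamyl-tRNA reductase, the enzyme that commits glutamate to ALA and a main point of control of the whole pathway. Its level was 2039, 2031 and 2041 normalized reads in *fer* and 2471, 2532 and 2518 normalized reads in WT. All *fer* libraries were below all WT libraries, and the spread within *fer* was very small, with a coefficient of variation of 0.254% in *fer* and 1.27% in WT. The mean was 2037 ± 5.17 in *fer* and 2507 ± 31.9 in WT (SD, n = 3 each), 18.7% below WT. The log2 fold change of -0.30 ± 0.070 (SE) had a 95% interval of -0.45 to -0.15 and a limma adjusted p of 0.0059.

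Mg-chelatase puts magnesium into protoporphyrin and has 3 kinds of subunit. CHLH, also known as GUN5, is the large subunit that binds the porphyrin, while CHLD and CHLI form the ATP-driven motor. Transcripts of all these subunits in the list were reduced in *fer*.

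CHLH had 3100.2, 3337 and 3004 normalized reads in *fer* and 3914, 4042 and 3817 normalized reads in WT. The highest *fer* library was thus below the lowest WT library. The mean was 3147 ± 171.3 in *fer* and 3924 ± 112.8 in WT (SD, n = 3 each), and the log2 fold change was -0.32 ± 0.071 (SE, limma adjusted p = 0.0043).

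CHLD stood at 647, 719.8 and 695 normalized reads in *fer* and at 886, 851 and 1045 normalized reads in WT, again without overlap. The mean was 687 ± 37.0 in *fer* and 927 ± 103.3 in WT (SD, n = 3 each), 25.9% below WT, with a log2 fold change of -0.43 ± 0.092 (SE, limma adjusted p = 0.0031). This was the lowest value of the 10 genes, but without the third WT library CHLD was at -0.34, and PORC was then lower at -0.40.

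CHLI1 was at 866, 917 and 840.3 normalized reads in *fer* and at 1056, 1002 and 1053 normalized reads in WT. The groups did not overlap, but the distance between the nearest *fer* and WT libraries was small. The mean was 875 ± 39.3 in *fer* and 1037 ± 30.3 in WT (SD, n = 3 each), and the log2 fold change was -0.25 ± 0.079 (SE, limma adjusted p = 0.044). This call lies close to the threshold: without 1 library it was kept in 1 of 6 fits, when the second *fer* library was left out, and the adjusted p over the 6 fits was 0.030 to 0.16.

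GUN4 binds porphyrins and stimulates Mg-chelatase. Its level was 228, 185 and 286 normalized reads in *fer* and 232, 235 and 253 normalized reads in WT. The *fer* libraries lay on both sides of the WT libraries, with a coefficient of variation of 21.7% in *fer* and 4.65% in WT, so the 95% interval of the log2 fold change was wide, at -0.35 to 0.22 around -0.065 (limma adjusted p = 0.81). Leaving out the second *fer* library turned the sign, to a log2 fold change of 0.089.

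Between the chelatase and protochlorophyllide, CHLM methylates Mg-protoporphyrin, and CRD1 (also CHL27) is the iron-binding subunit of the cyclase that closes the fifth ring. CHLM had 802, 848 and 806 normalized reads in *fer* and 852, 875 and 907 normalized reads in WT. Although no *fer* library reached the WT range, the mean was only 6.77% below WT, and the log2 fold change of -0.10 ± 0.080 (SE) did not pass the test (limma adjusted p = 0.46). CRD1 had 5474, 5189.6 and 5144 normalized reads in *fer* and 5730.0, 5498 and 5449 normalized reads in WT, with overlap between the groups. Its log2 fold change was -0.077 ± 0.068 (SE, 95% interval -0.22 to 0.066, limma adjusted p = 0.51). Decreases of the size seen for CHLD lie outside the intervals of both genes, as the lower bound for CHLM was -0.27. Median of ratios scaling gave -0.20 for CHLM (limma adjusted p = 0.10) and -0.18 for CRD1 (limma adjusted p = 0.096).

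The light-requiring step that turns protochlorophyllide into chlorophyllide is catalysed by the protochlorophyllide oxidoreductases. Arabidopsis has 3 of these enzymes, of which PORA acts mainly in dark-grown seedlings, PORB in seedlings and green tissue alike, and PORC in green tissue and in strong light. PORC had 816, 887 and 773 normalized reads in *fer* and 1090.0, 1091 and 1048 normalized reads in WT. Every *fer* library was below every WT library, with means of 825 ± 57.3 in *fer* and 1077 ± 24.5 in WT (SD, n = 3 each), and the log2 fold change was -0.39 ± 0.082 (SE, limma adjusted p = 0.0029). PORB, in contrast, had 1315, 1416 and 1311 normalized reads in *fer* and 1334, 1283 and 1379 normalized reads in WT. Here the libraries of the genotypes were interleaved, and the log2 fold change was 0.016 ± 0.076 (SE, 95% interval -0.14 to 0.18, limma adjusted p = 0.92). PORA was near the floor of the measurement, with 3.35, 5.28 and 0 normalized reads in *fer* and 5.84, 7.04 and 7.93 normalized reads in WT (log2 fold change -1.39, limma adjusted p = 0.16).

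Since a ratio of transcripts within a library does not depend on the library scaling, the balance of PORB and PORC was also taken per library. The ratio of PORB to PORC was 1.61, 1.60 and 1.69 in *fer* and 1.22, 1.18 and 1.32 in WT. All *fer* ratios exceeded all WT ratios, with means of 1.63 ± 0.053 in *fer* and 1.24 ± 0.071 in WT (SD, n = 3 each). The exact two-sided permutation test gave p = 0.1, the smallest value that 3 libraries against 3 allow, and an adjusted exact p of 0.4 over the 8 ratios compared.

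CAO, chlorophyllide *a* oxygenase, makes the *b* form of the pigment, which is bound by the light-harvesting antenna. It had 371, 405 and 379 normalized reads in *fer* and 392, 391 and 438 normalized reads in WT. The ranges overlapped, and the log2 fold change was -0.080 ± 0.096 (SE, 95% interval -0.28 to 0.12, limma adjusted p = 0.64), or -0.18 for CAO by median of ratios (limma adjusted p = 0.24).

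Of the 8 ratios, only those of PORB to PORC and of HEMA1 to HEMA2 kept the genotypes apart in every library. HEMA2 encodes a second glutamyl-tRNA reductase, known from roots and other non-green tissue. The ratio of HEMA1 to HEMA2 was 74.6, 74.0 and 59.2 in *fer* and 115.7, 132.4 and 103.5 in WT, with an exact permutation p of 0.1 and 0.4 after adjustment. HEMA2 on its own stood at 29.8 ± 4.10 normalized reads in *fer* and 21.6 ± 2.62 in WT (SD, n = 3 each), and did not pass the test (limma adjusted p = 0.32). Within Mg-chelatase the proportions overlapped between genotypes. CHLH to CHLI1 averaged 3.60 ± 0.035 in *fer* and 3.79 ± 0.22 in WT, CHLI1 to its minor paralog CHLI2 averaged 8.21 ± 1.21 in *fer* and 8.22 ± 0.26 in WT, and GUN4 to CHLH averaged 0.0747 ± 0.020 in *fer* and 0.0612 ± 0.0043 in WT (SD, n = 3 each). Of the branch point, FC2 to HEMA1, ferrochelatase over the entry enzyme, averaged 0.155 ± 0.017 in *fer* and 0.137 ± 0.0044 in WT, also with overlap.

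**Figure D2:**
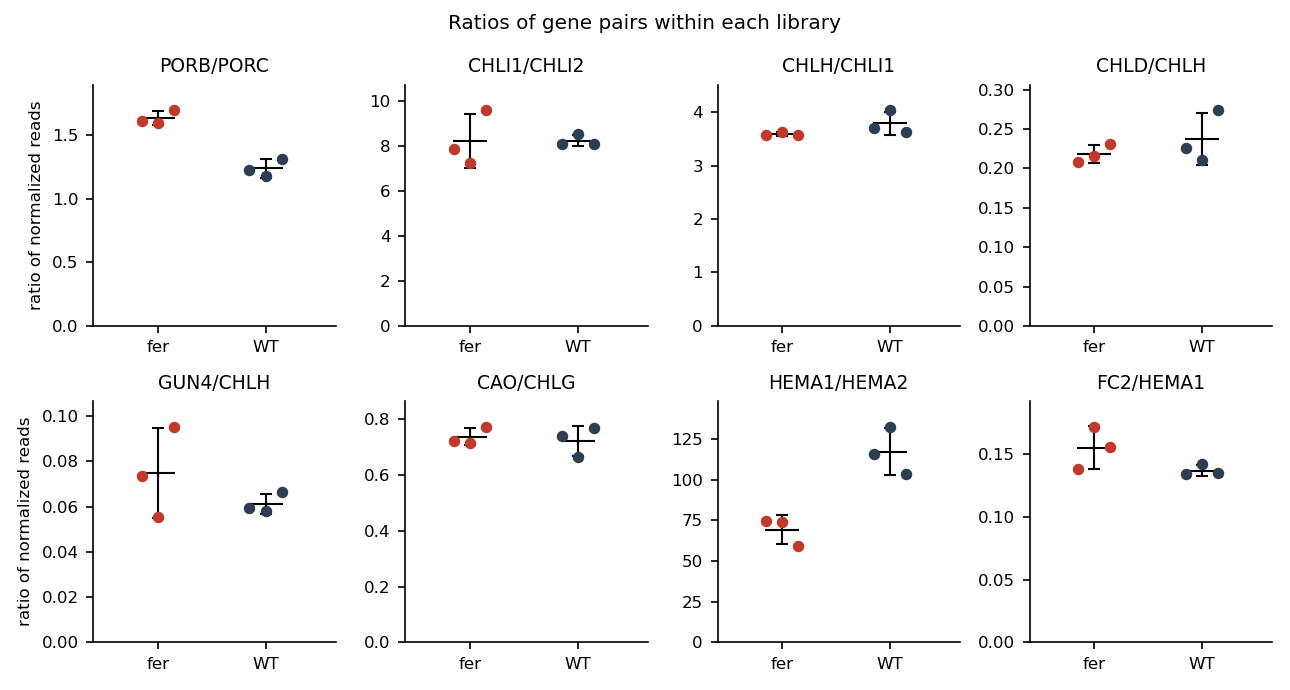
Transcript ratios within each library for the 8 pairs of genes, 3 *fer* libraries left of 3 WT libraries. The ratio of PORB to PORC lies between 1.60 and 1.69 in *fer* and between 1.18 and 1.32 in WT, and that of HEMA1 to HEMA2 is lower in all *fer* libraries, while the other 6 ratios overlap.

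Counted over the list, 5 of the 10 genes were decreased, beside 4.52% of all genes, and the groups failed to overlap with *fer* lower for 6 of the 10, beside 10.5% of all genes. Because abundant transcripts are measured more precisely, the share among the 2918 genes at least as abundant as GUN4 is the closer background. There, 17.6% were decreased and 26.8% were lower without overlap. The mean was lower in *fer* for 9 of the 10 genes, with PORB as the exception, and the median log2 fold change was -0.17 (range -0.43 to 0.016), or -0.28 by median of ratios scaling. The median was 0.10 over all genes and 0.012 over the 2918 abundant genes, of which 1415 were lower and 1503 higher in *fer*. No gene of the 10 was higher in *fer* even at an unadjusted p under 0.05. These counts describe a list that was chosen with results known and carry no test of their own.

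The 10 genes together contributed 15659, 15936 and 15279 normalized reads in *fer* and 17958, 17801 and 17908 normalized reads in WT. This sum corresponded to 0.345% ± 0.0073 of all normalized reads in *fer* and 0.395% ± 0.0018 in WT (SD, n = 3 each), so that *fer* had 87.3% of the WT amount with no overlap between libraries. CRD1 made up 33.7% of the sum in *fer* and 31.1% in WT, CHLH 20.1% in *fer* and 21.9% in WT, and HEMA1 13.0% in *fer* and 14.0% in WT. In whole leaves, fewer green cells and fewer transcripts per green cell cannot be told apart.

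The 3′ ends of these genes had no exact copies elsewhere: for each gene, 0 of the 451 windows of 50 bases in its last 500 bases occurred a second time in the TAIR10.1 genome. The windows were cut from genomic sequence, and copies with mismatches were not searched. The study allowed mismatches in its alignment, so the search does not show how reads were divided between close relatives such as PORB and PORC. For 6 of the genes another annotated gene overlaps the 3′ end. The case with the largest values is PORB (chr4:13725546-13727440, plus strand), of which 71 bases at the 3′ end lie over the antisense gene AT4G27450. That gene averaged 194 normalized reads in *fer* and 83.4 in WT and was increased (log2 fold change 1.26, limma adjusted p = 6.2e-05). The antisense neighbour of CRD1, SIP2;1 (AT3G56950), was increased as well, with means of 42.1 in *fer* and 22.2 in WT (log2 fold change 0.92, limma adjusted p = 0.025). Use of strand in the counting is not given in the sources used here, so reads of such pairs cannot be told apart. The gain of AT4G27450 in *fer* was 110.7 normalized reads, and the PORB mean was 1347 in *fer* and 1332 in WT.

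The start regions of 4 of these genes are shown. They are those of PORC, which was called decreased, and of PORB, CRD1 and CAO, which were not called. CRD1 and CAO carry the G-box, the motif bound by HY5 and by PIF factors in light signalling. The 4 regions were chosen with the calls known, and their relation to transcript levels was not tested. Each is the sequence of the 250 bases before the start of the gene as RefSeq annotates it in TAIR10.1, read 5′ to 3′ on the strand of the gene, with motif matches in capitals: PORC at chr1:907273-907522 (plus strand), PORB at chr4:13725296-13725545 (plus strand), CRD1 at chr3:21076255-21076504 (plus strand) and CAO at chr1:16851272-16851521 (minus strand).
PORC: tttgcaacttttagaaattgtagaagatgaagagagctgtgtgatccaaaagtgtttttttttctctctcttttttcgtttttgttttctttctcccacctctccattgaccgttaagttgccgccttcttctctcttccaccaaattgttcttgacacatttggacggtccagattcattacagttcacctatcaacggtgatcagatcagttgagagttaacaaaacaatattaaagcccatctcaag
PORB: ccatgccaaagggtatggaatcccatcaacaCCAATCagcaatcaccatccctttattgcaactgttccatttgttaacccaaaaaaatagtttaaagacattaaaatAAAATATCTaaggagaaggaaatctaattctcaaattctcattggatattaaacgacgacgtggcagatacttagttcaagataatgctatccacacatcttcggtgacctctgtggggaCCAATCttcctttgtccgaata
CRD1: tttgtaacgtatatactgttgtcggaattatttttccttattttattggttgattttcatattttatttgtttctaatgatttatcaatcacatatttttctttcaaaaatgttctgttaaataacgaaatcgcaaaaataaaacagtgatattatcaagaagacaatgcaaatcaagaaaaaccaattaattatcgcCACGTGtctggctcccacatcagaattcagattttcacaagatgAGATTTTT
CAO: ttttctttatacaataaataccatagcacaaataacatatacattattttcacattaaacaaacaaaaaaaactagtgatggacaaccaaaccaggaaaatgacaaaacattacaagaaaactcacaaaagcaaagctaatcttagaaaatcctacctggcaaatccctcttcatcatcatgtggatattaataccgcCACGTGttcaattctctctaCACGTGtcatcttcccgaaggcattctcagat

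The 5 motifs were searched on both strands, were picked with the expression values known, and do not contain one another. The G-box CACGTG was in 2 of the 10 promoters and in 7.45% of the 19934 promoters of the same length, at 52 bases before the start of CRD1 and at 52 and 32 bases before the start of CAO. The CCA1 site AAAAATCT was in those of GUN4 and CRD1 (6.81% of all promoters), and CCAATC in those of GUN4 and PORB (10.5%), with the PORB copies at 219 and 22 bases before the start. The evening element AAAATATCT was in the PORB promoter only among the 10 (2.50%), and the I-box core GATAAG was in none of the 10 (12.4%). Among the 10 promoters, matches were in those of GUN4, CRD1, PORB and CAO only. Because the motifs were picked with the calls known, how matches divide between decreased and other genes is not a result. The share of all promoters with any of the 5 motifs was not taken. A match describes letters in this window and nothing more.

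Beyond the 10 genes, 28 further genes of tetrapyrrole metabolism were in the table, of which 4 were decreased and none increased by limma, a median log2 fold change of -0.12, and 9 genes at an unadjusted p under 0.05. The background is the same as above, 4.52% decreased over all genes and 17.6% over the abundant ones, and the count was 7 by median of ratios and 0 without the variance trend. In the shared steps between ALA and protoporphyrin, 2 of 13 genes were decreased (median -0.19). GSA1 (AT5G63570), the aminotransferase that forms ALA, had 440.2, 374 and 470.3 normalized reads in *fer* and 633, 655 and 551 normalized reads in WT (log2 fold change -0.52 ± 0.10 SE, limma adjusted p = 0.0016). HEME2 (AT2G40490), a uroporphyrinogen decarboxylase, had 166, 146 and 219 normalized reads in *fer* and 267, 262 and 279 normalized reads in WT (log2 fold change -0.62 ± 0.13 SE, limma adjusted p = 0.0032). In both cases all *fer* libraries were below WT.

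Of the 6 other genes of the chlorophyll branch, 2 were decreased (median -0.33). DVR (AT5G18660), which reduces the divinyl side chain, was at 245, 276 and 258 normalized reads in *fer* and at 359, 350.1 and 372 normalized reads in WT (log2 fold change -0.47 ± 0.10 SE, limma adjusted p = 0.0029). CHLP (AT1G74470), the geranylgeranyl reductase that supplies the phytol tail, was among the most abundant genes of the leaf, at rank 111. It had 4140.2, 3954 and 3943 normalized reads in *fer* and 5754, 5746 and 4842 normalized reads in WT, again without overlap (log2 fold change -0.44 ± 0.078 SE, limma adjusted p = 0.00056). LCAA, a further component of the cyclase, was instead at 635, 710.2 and 674 normalized reads in *fer* and at 605, 600.5 and 614 normalized reads in WT, higher in every *fer* library but not past the test (log2 fold change 0.15, limma adjusted p = 0.28).

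In the heme, bilin and siroheme branches none of 9 genes was called, a median of 0.097 and 1 gene at an unadjusted p under 0.05. This gene was the ferrochelatase FC1, with 89.5, 66.6 and 79.4 normalized reads in *fer* and 60.2, 55.3 and 46.0 normalized reads in WT (log2 fold change 0.53 ± 0.19 SE, limma adjusted p = 0.063). The value furthest from 0 in that list belonged to HO4, a heme oxygenase, at a log2 fold change of 0.65 from very low levels (limma adjusted p = 0.51). The mean was lower in *fer* for 4 of the 9 genes, among them the most abundant, HO1 (log2 fold change -0.15) and FC2 (-0.12), and higher for 5. Genes of this list at low levels had wide intervals, such as HO3 at -0.24 to 1.39, so small changes were not detectable in them. A difference between the branches was not tested.

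**Figure D3:**
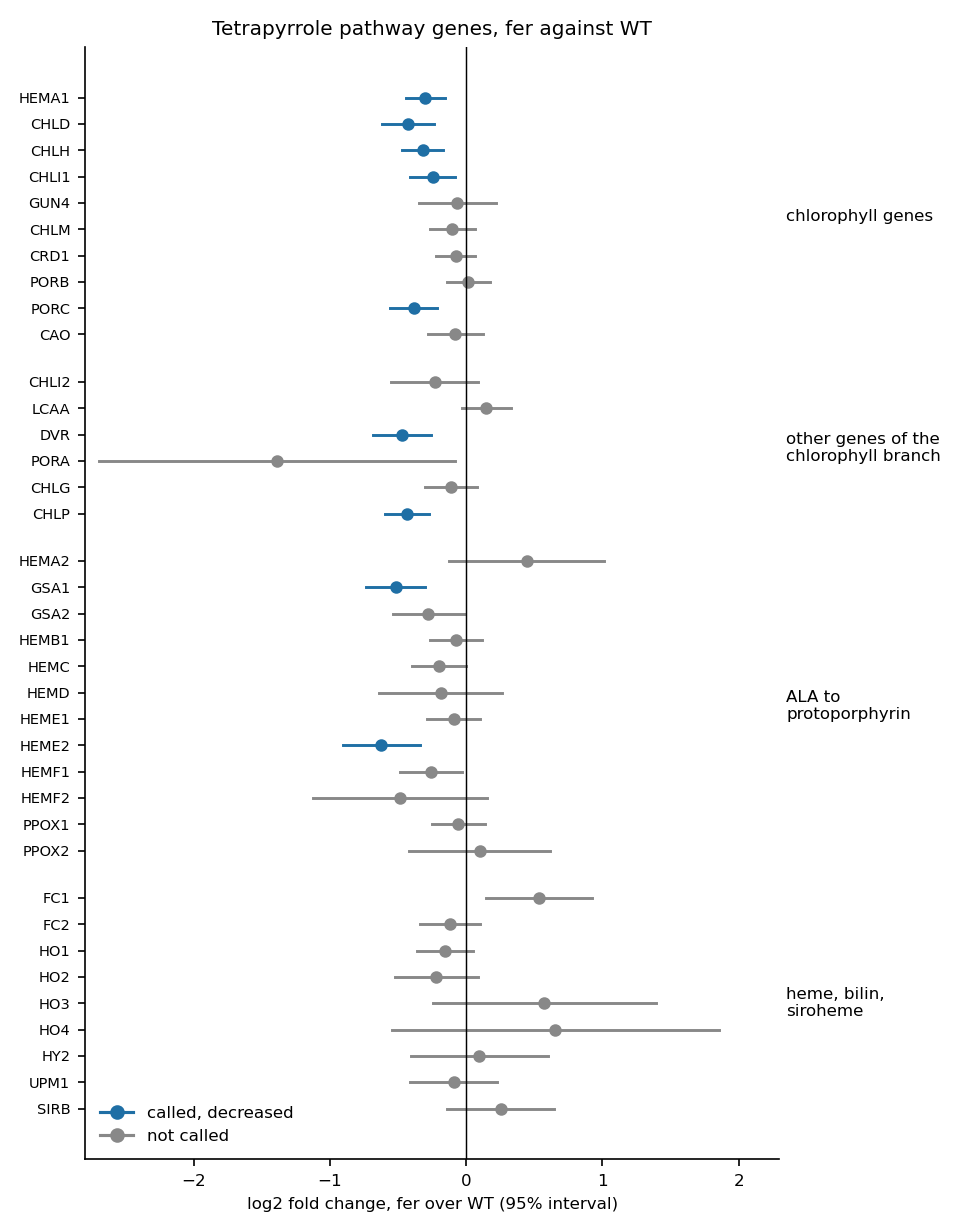
Log2 fold change, *fer* over WT, with its 95% interval for the 10 chlorophyll biosynthesis genes and the other tetrapyrrole genes, grouped by branch, in blue where the gene passed the test and in grey where it did not. HEMA3 is left out because all its *fer* libraries were at or under 3 normalized reads. Blue symbols are all to the left of 0, in the ALA steps and the chlorophyll branch. The heme branch has none, with wide intervals for its rarer genes.

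Proteins that act on the enzymes after translation were not called in any of 5 cases by limma, with 1 at an unadjusted p under 0.05. This was LIL3.1, a membrane protein that anchors CHLP and related enzymes, at 469, 497 and 403 normalized reads in *fer* and 583, 562 and 518 normalized reads in WT (log2 fold change -0.28 ± 0.098 SE, limma adjusted p = 0.061). The list also held FLU, the repressor of ALA synthesis in the dark, and GUN1 of plastid signalling.

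Among 11 transcriptional regulators, 2 were increased and none decreased, with 3 at an unadjusted p under 0.05. Over all genes, 10.0% were increased and 4.52% decreased. CGA1 (AT4G26150), a GATA factor that promotes greening, had 116.8, 106.6 and 110.1 normalized reads in *fer* and 51.2, 74.4 and 52.0 normalized reads in WT. All *fer* libraries were higher, and the log2 fold change of 0.92 ± 0.18 (SE, limma adjusted p = 0.0011) was called under all 12 alternatives in which it was tested. GLK1 (AT2G20570), an activator of genes for chlorophyll synthesis and antenna proteins, had 522, 507 and 520.1 normalized reads in *fer* and 375, 426 and 436 normalized reads in WT (log2 fold change 0.33 ± 0.093 SE, limma adjusted p = 0.022). Its call was kept under 6 of 13 alternatives, with an adjusted p of 0.015 to 0.18 over them. It was lost by both other scalings, with a log2 fold change of 0.23 (limma adjusted p = 0.12) by median of ratios and 0.26 (limma adjusted p = 0.081) by quantiles, and without the variance trend (limma adjusted p = 0.18). It was also lost without the first or second WT library and without the first or the third *fer* library, with log2 fold changes of 0.26 to 0.37 over the fits that left out 1 library. GNC (AT5G56860), the close relative of CGA1 with a like role, had 235.5, 242 and 293 normalized reads in *fer* and 303, 371 and 308 normalized reads in WT. It was thus lower in all *fer* libraries and narrowly missed the threshold (log2 fold change -0.35 ± 0.12 SE, limma adjusted p = 0.052). Under 5 of 13 alternatives GNC was called decreased, among them median of ratios scaling (-0.45, limma adjusted p = 0.012), with an adjusted p of 0.012 to 0.25 over the 13. How these regulators relate to the 10 chlorophyll genes was not tested.

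Many chlorophyll genes follow the day, and the time of collection is not given in the labels. Of 11 genes of the circadian clock, 1 was increased and none decreased, beside 10.0% increased and 4.52% decreased over all genes. The count of increased clock genes is thus close to the share over all genes. At an unadjusted p under 0.05 there were 3 clock genes, beside 5614 of the 20754 genes. These were LHY, GI and ELF3, each higher in every *fer* library than in WT. GI was not called (log2 fold change 0.49, limma adjusted p = 0.060). LHY (AT1G01060), a morning-phased repressor, had 714, 667 and 760.2 normalized reads in *fer* and 513, 514 and 657 normalized reads in WT (log2 fold change 0.35 ± 0.10 SE, limma adjusted p = 0.024), a call kept under 6 of 13 alternatives, with an adjusted p of 0.0037 to 0.23. The LHY call was lost by median of ratios (0.25, limma adjusted p = 0.12), by quantiles (0.27, limma adjusted p = 0.10) and without the variance trend, as well as without the first or second WT library and without the first or the third *fer* library. ELF3, part of the evening complex, had 22.8, 20.0 and 20.1 normalized reads in *fer* and 14.2, 12.1 and 6.30 normalized reads in WT, which did not pass the test (log2 fold change 0.95, limma adjusted p = 0.090).

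Markers of the leaf's cell types and of its age were read beside these genes. All 5 mesophyll markers were decreased in *fer*, by 18.0% to 41.8% of the WT mean, with log2 fold changes of -0.78 for CA1 to -0.29 for LHCB1.3. Their summed level was 123552 to 139666 normalized reads in *fer* and 174818 to 176914 normalized reads in WT. The calls of RBCS1A (log2 fold change -0.31) and LHCB1.3 were lost under quantile normalization, where RBCS1A no longer differed because it holds the top rank, and also without the second WT library for RBCS1A (-0.26 at the weakest) and without the first *fer* library for LHCB1.3. Without the variance trend, CA1 alone of the 5 was called. All 4 senescing-leaf markers were increased, with a summed level of 516 to 577 normalized reads in *fer* and 152 to 176 normalized reads in WT. The cysteine protease gene SAG12 had 35.7, 25.3 and 48.2 normalized reads in *fer* and 0.39, 0.014 and 0 normalized reads in WT, at least 12.1-fold higher in *fer* against a floor of 3 normalized reads per library. SGR1, whose product starts the breakdown of chlorophyll, was increased with a log2 fold change of 0.70 ± 0.15 (SE, limma adjusted p = 0.0038), and SEN1 with 0.85 ± 0.16 (SE, limma adjusted p = 0.0011). The SGR1 call was lost without the variance trend (adjusted p = 0.055). None of 5 guard cell markers and none of 3 phloem markers was called by limma, with 0 guard cell markers and 1 phloem marker at an unadjusted p under 0.05. Log2 fold changes were -0.55 to 0.18 for the guard cell markers and -0.26 to 0.26 for the phloem markers. All 5 epidermis and trichome markers had a lower mean in *fer*, and 1 of them, ATML1, was called decreased (log2 fold change -0.63). The part of leaf age or cell make-up in the lower levels of the chlorophyll genes was not tested.

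**Figure D4:**
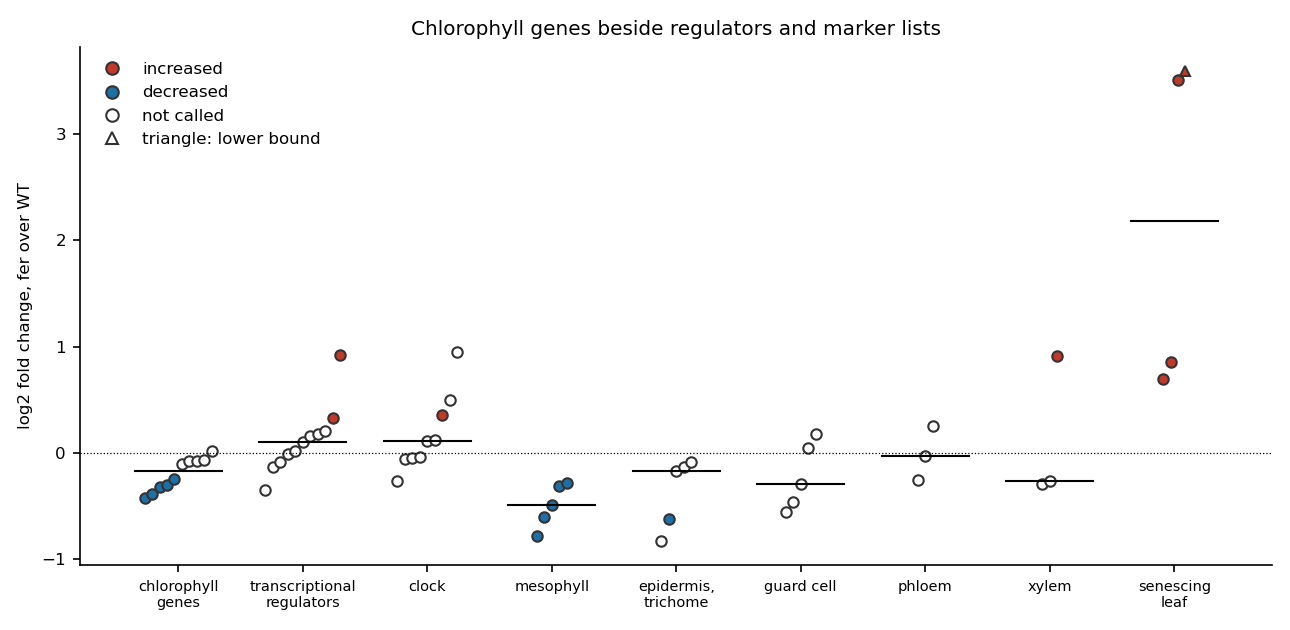
Log2 fold change, *fer* over WT, of each gene in the chlorophyll list and in the lists of regulators, clock genes and markers, with the list median as a line and colour for genes called increased or decreased. The chlorophyll genes lie between -0.43 and 0.016, the mesophyll markers between -0.78 and -0.29, and the senescing-leaf markers are all above 0, with SAG12 drawn as a triangle at its lower bound of 3.60. PRR5 and ELF4 of the clock list, at or near 3 normalized reads, are left out.

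The decreases held over most ways of treating the values. HEMA1, CHLD, CHLH and PORC were called in 12 of 13 alternatives, including all 6 that left out 1 library, with log2 fold changes of -0.40 to -0.29 for HEMA1, -0.53 to -0.34 for CHLD, -0.42 to -0.29 for CHLH and -0.49 to -0.34 for PORC. With limma fitted without the trend of variance on level, which gives rare and abundant genes the same prior variance, none of the 10 genes passed at an adjusted p under 0.05, and 4 did at an unadjusted p under 0.05, all decreased. The adjusted p was then 0.17 for HEMA1, 0.14 for CHLD, 0.18 for CHLH, 0.26 for CHLI1 and 0.13 for PORC, and 1.07% of all genes were decreased. Without the trend but over the 3447 genes with a mean of at least 200 normalized reads alone, the same 5 genes were decreased, with an adjusted p of 0.010 for HEMA1, 0.0093 for CHLD, 0.012 for CHLH, 0.031 for CHLI1 and 0.0061 for PORC, beside 17.6% of those genes. That fit was added after the data were seen, and it counts among the 13 alternatives. Scaling by the median of ratios or by quantiles also called 5 of the 10 decreased, beside 7.03% of all genes with median of ratios and 6.99% with quantiles. The share among abundant genes, the closer background, was not taken under these scalings.

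**Figure D5:**
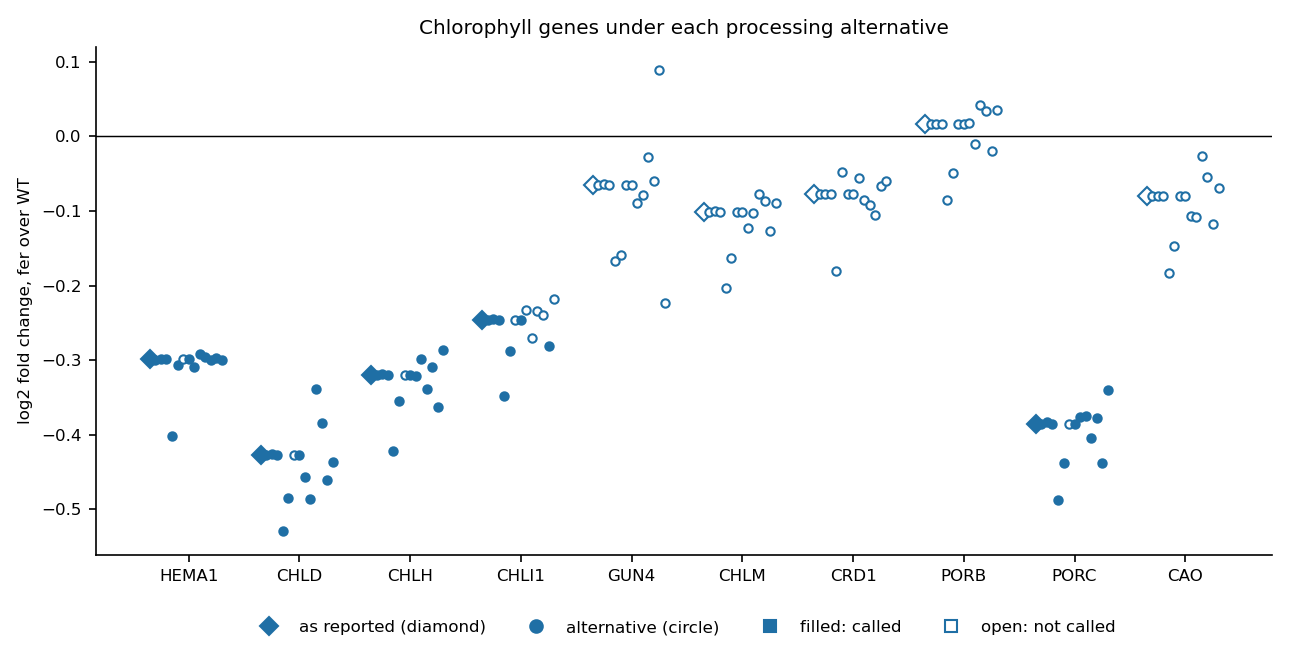
Log2 fold change, *fer* over WT, of the 10 chlorophyll biosynthesis genes as reported (diamond) and under the 13 alternatives (circles), with filled symbols where limma called the gene and open symbols where it did not. HEMA1, CHLD, CHLH, CHLI1 and PORC stay below 0 in every setting, and PORB and GUN4 lie on both sides of 0.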

How the data were processed

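RNA of 3 *fer* and 3 WT rosette leaf samples was sequenced with QuantSeq as 50-base single-end reads, each library being run again and merged before processing. Per the labels, the submitters' processing notes name STAR, HTSeq, edgeR and the TAIR10 build, without versions. The deposited values are a signal per gene, reads normalized by the authors with TMM to a common library size. Whole reads could not be recovered from them, so no count test was run and depth is unknown. The deposited table also has a column of log2 fold changes from the authors' own comparison, which was not used.

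Values were taken as log2(value + 1) and compared by limma (version 3.58.1, R 4.3.3) with eBayes and a variance trend, two-sided, and p-values were adjusted after Benjamini and Hochberg over the 20754 genes, with calls at an adjusted p under 0.05. Fold changes on this scale are understated for low genes, and near the floor they depend strongly on the pseudocount. The log2 fold change of SAG12 was 2.97 with a pseudocount of 5, 5.01 with 1 and 7.63 with 0.1. Limma SEs, intervals and p-values rest on a variance for each gene that is drawn toward that of genes of like level. They thus do not measure the spread of a gene between these samples alone. That spread may be partly technical. Ratios were compared by the exact permutation test. All listed genes were named by their TAIR identifiers, and promoters and overlaps were read from the RefSeq annotation of TAIR10.1. The 10 genes and all other lists were chosen with earlier results of these data known. Beyond the 10 genes and FER, the text names every called gene of the pathway and regulator lists and the gene furthest from 0 in each, and a few others (LCAA, FC1, HEMA2, FLU, GUN1, GNC, GI) chosen after their values were seen. Alternatives were other pseudocounts (0.1 and 5), a minimum mean of 5, scaling by median of ratios or quantiles, no variance trend, an adjusted p under 0.01, and leaving out each library. The fit without the trend over genes with a mean of at least 200 was added after seeing the data. HEMB2, WER, AP1 and AP3 had no row and were not analysed here.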

Additional observations from a re-analysis of the deposited data

How the results depend on the processing

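Of the 10 chlorophyll genes, 5 were decreased under the other pseudocounts, the low-level filter and both scalings, 4 at an adjusted p under 0.01, and 4 to 5 without 1 library. Without the variance trend 0 were decreased, and 0 of the other tetrapyrrole genes, because 1 prior variance then serves all levels. Median of ratios scaling gave 7 decreased other tetrapyrrole genes and a median of -0.28 for the 10 genes, since it moved the median of all genes to 0.0031 and the split of calls to 1510 increased and 1459 decreased (1353 and 1450, with a median of -0.043, by quantiles). Under the main scaling the median of the 10 genes was -0.17, and -0.22 to -0.16 without 1 library. Without 1 library, other tetrapyrrole genes called were 4 to 5 decreased and 0 to 1 increased, FC1 without the second *fer* library. PORB was at -0.086 by median of ratios, at -0.050 by quantiles and at -0.020 to 0.042 without 1 library, and GUN4 at -0.22 to 0.089. Over all genes 3021 were called, and 1130 without the trend, 1682 at an adjusted p under 0.01, 1316 without the trend among genes with a mean of at least 200, where fewer genes were tested, and 1907 to 2503 without 1 library, the lowest without the third *fer* library and then the second WT library (1973). The share of the 10 genes in all reads differed by -0.050 percentage points, and by -0.044 without CRD1. CHLI1 alone of the 5 lost its call when 1 library was left out. No paired analysis was possible because no replicate number stands in the column names. With 3 libraries a genotype and unknown depth, differences under the intervals given, such as that of GUN4, were not detectable.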

Other observations

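Of the 5 epidermis and trichome markers, none but the epidermal regulator ATML1 was called by limma, decreased in *fer* with a log2 fold change of -0.63. Of 3 xylem markers, CESA7 was increased (log2 fold change 0.91, limma adjusted p = 0.046). This call was lost whichever library was left out (0.81 to 1.02), and also by median of ratios and by quantiles. XCP1 (log2 fold change -0.27) and XCP2 (-0.29) of the same list were lower in every *fer* library than in WT and were not called. The nitrate transporter gene NRT2.1, listed with root markers, had 8.68, 12.5 and 15.5 normalized reads in *fer* and 0.19, 0.0071 and 1.14 normalized reads in WT, while 4 of the 5 root markers were in the table and NRT2.1 was the only one called. Of 3 flower markers, AP1 and AP3 had no row in the table and PI was not called, with at most 7.25 normalized reads in *fer* and 2.01 in WT.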
